A study of Mus musculus with 56 samples.

Results

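The voltage-gated potassium channel genes described here are 3 Kv1 pore subunits (Kcna1, Kcna2 and Kcna4), 3 Kv3 pore subunits (Kcnc1, Kcnc2 and Kcnc4) and the 3 cytoplasmic Kv beta subunits (Kcnab1, Kcnab2 and Kcnab3). They were chosen by name, 9 of the 18088 genes in the deposited table, and the choice was made because several of them were higher under lithium. Their lithium changes are therefore given as a description. Counts of calls for lithium are printed only beside the share over all genes, and nothing is supported with them. The fluoxetine, genotype and sex comparisons were not used for the choice and are tested. Those of fluoxetine, and of genotype under vehicle or lithium, share libraries with the lithium changes and are not independent of the choice. All 9 genes passed the filter on low values.

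RNA sequencing was done on the prefrontal cortex of 56 C57BL/6J mice at postnatal day 25. The mice were wild type (WT, 27 libraries) or heterozygous for Scn2a (HT, 29 libraries), the gene of a neuronal voltage-gated sodium channel. From day 3 to day 24 the dam's milk had carried fluoxetine, lithium or vehicle. With both sexes this gave 12 groups of 4 to 5 libraries, or 9 to 10 libraries for each genotype and treatment. Every HT group carried the same heterozygous genotype, and no other allele or agent is named. The labels name no dam or litter. Because the dam received the drug, pups of a group may have shared one, and the p-values of drug effects may then be too small. The p-values measure the spread between these libraries.

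Kv1 channels open at low voltage, sit at axon initial segments and beside nodes of Ranvier, and limit how easily an axon fires. Kv beta subunits bind the inner face of Kv1 channels, and Kv beta 1 can add fast inactivation. Kv3 channels open only at strong depolarisation and close quickly, which lets fast-spiking cells, such as cortical parvalbumin interneurons, fire at high rates.

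The 6 pore genes share the selectivity filter, the loop that admits potassium and refuses sodium. Its coding sequence is shown because it defines the family and because it shows how far the transcripts resemble each other, which bears on how reads are assigned. The 45 bases of each were read from GENCODE vM21 transcripts (GRCm38), 5′ to 3′ on the coding strand, with the 18 bases of the filter in capitals. The first stretch lies in exon 2 of Kcna1 at chr6:126642216-126642260 (minus strand), the Kcna2 stretch in exon 3 at chr3:107105206-107105250 (plus) and the Kcna4 stretch in exon 2 at chr2:107296477-107296521 (plus). Those of the Kv3 genes lie in exon 2 of Kcnc1 at chr7:46427955-46427999 (plus), exon 3 of Kcnc2 at chr10:112456211-112456255 (plus) and exon 2 of Kcnc4 at chr3:107447787-107447831 (minus).
Kcna1: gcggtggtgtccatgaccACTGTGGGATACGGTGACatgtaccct
Kcna2: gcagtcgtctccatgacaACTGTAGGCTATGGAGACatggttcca
Kcna4: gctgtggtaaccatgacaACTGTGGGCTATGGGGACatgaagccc
Kcnc1: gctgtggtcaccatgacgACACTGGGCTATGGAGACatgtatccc
Kcnc2: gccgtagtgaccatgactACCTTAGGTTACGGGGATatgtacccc
Kcnc4: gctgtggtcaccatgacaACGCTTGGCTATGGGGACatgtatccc
Kcnc1 and Kcnc4 matched in 41 of the 45 bases, Kcna1 and Kcna2 in 33, and Kcna2 and Kcnc2 in 30. Between transcripts of 2 of the 9 genes the longest identical run was 47 bases, for Kcna2 and Kcnc1. Antisense genes overlap Kcnab1, Kcnab2 and Kcnab3, and the protein-coding Nphp4 overlaps Kcnab2 on the opposite strand. On the same strand, AC113458.1 overlaps Kcnab1 and Gm16334 overlaps Kcnab2. Whether the counting used strand is not given in the sources used here. Reads of the 3 Kv beta genes and their opposite-strand partners may therefore not be fully separated. Strand alone would not separate the same-strand overlaps.

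The promoter table (RefSeq, GRCm38.p6) held 14 windows for 7 of the 9 genes. The 250 bases before the annotated start are shown for 3 of them: Kcnc1 and Kcna2, whose values were higher under lithium in HT mice, and Kcna4, whose values ran the other way. Capitals mark the cAMP response element core TGACG and the Sp1 motif GGGCGG, on either strand. The windows are chr7:46396218-46396467 (plus) for Kcnc1, chr3:107101317-107101566 (plus) for Kcna2 and chr2:107290339-107290588 (plus) for Kcna4.
Kcnc1: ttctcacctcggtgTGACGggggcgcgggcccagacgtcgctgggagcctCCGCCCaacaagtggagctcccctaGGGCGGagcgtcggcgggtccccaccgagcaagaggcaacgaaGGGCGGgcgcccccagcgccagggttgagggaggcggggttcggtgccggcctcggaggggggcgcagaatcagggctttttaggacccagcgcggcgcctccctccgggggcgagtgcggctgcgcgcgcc
Kcna2: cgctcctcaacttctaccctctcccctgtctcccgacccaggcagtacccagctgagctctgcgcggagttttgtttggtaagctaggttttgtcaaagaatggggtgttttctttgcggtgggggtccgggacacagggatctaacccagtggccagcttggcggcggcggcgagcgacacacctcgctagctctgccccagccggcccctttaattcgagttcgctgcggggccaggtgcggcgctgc
Kcna4: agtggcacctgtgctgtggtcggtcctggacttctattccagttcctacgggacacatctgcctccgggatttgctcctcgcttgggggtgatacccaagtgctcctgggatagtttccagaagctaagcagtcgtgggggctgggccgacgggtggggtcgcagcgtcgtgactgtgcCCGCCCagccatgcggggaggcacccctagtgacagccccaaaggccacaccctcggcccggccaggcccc
The Kcnc1 window was 74.4% GC and held 1 TGACG and 3 GGGCGG matches. The Kcna2 window (62.4% GC) held neither motif, and the Kcna4 window (65.2% GC) held 1 GGGCGG. Among the other genes, the Kcnc4 window and 1 of the Kcnab2 windows also held TGACG. The Kcnc4 window and 1 window each of Kcnab1, Kcnab2 and Kcnc2 held GGGCGG. Of the 32851 windows in the table, 17.8% held TGACG and 32.7% held GGGCGG. No window of the 7 genes held the full cAMP response element TGACGTCA (1.55% of all windows), the TCF/LEF motifs CTTTGAT or CTTTGAA (7.48%) or the TATA box TATAAA (12.4%). These matches are letters in a window and say nothing about binding.

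The values are read counts divided by a size factor per library, at a depth of 24.3 to 36.4 M reads, and are called normalised read counts here. Scn2a itself ran from 9727 to 13381 in the 27 WT libraries and from 7583 to 9619 in the 29 HT libraries, without overlap, so it went with every genotype label. Cortical excitatory markers were high throughout (Slc17a7, a vesicular glutamate transporter, 45151 to 59615). Markers of neighbouring regions varied between libraries. The olfactory bulb marker Doc2g ran from 106 to 2957 and the striatal marker Drd2 from 20.4 to 734. A score (mean log2 deviation over the 11 olfactory bulb and neuroblast genes, or over the 14 striatal genes) was above 1 in 20 libraries. Among the lithium changes of the 9 genes, only some are also given without those 20. They are Kcna1 and Kcnab3 in WT mice, and Kcna1, Kcna2, Kcnab3 and Kcnc1 in HT mice. In bulk tissue, fewer cells of a type and less RNA per cell cannot be told apart.

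All 9 genes were well detected. Scaled to merged exon length, the median over the 56 libraries was highest for Kcnab2, the main Kv beta subunit of brain, at 1902 normalised read counts per kb. Kcnc4, a Kv3 subunit with rapid inactivation, followed at 772 per kb, and Kcna2, the most abundant of the 3 Kv1 genes, at 739 per kb. Kcnc1, the Kv3.1 pore gene of fast-spiking cells, was at 582 per kb. Below it were Kcnc2 (Kv3.2) at 412, Kcnab3 at 404 and Kcna1 (Kv1.1) at 394 per kb, a trio whose values overlapped. Kcnab1 was at 199 per kb. Kcna4, the fast-inactivating Kv1.4 pore gene, was lowest at 107 per kb.

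Kcnab2 and Kcnc1 were the steadiest of the 9 between libraries of a group, with a standard deviation of 3.85% and 3.86%. Only 6.01% and 6.14% of the genes tested varied less. The widest were Kcnab1 at 12.4%, Kcnab3 at 11.1% and Kcna4 at 10.6%. Counting error alone would give 1.0% (Kcnab2) to 4.57% (Kcna4), so for every member the libraries differed by more than read sampling.

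**Figure D1:**
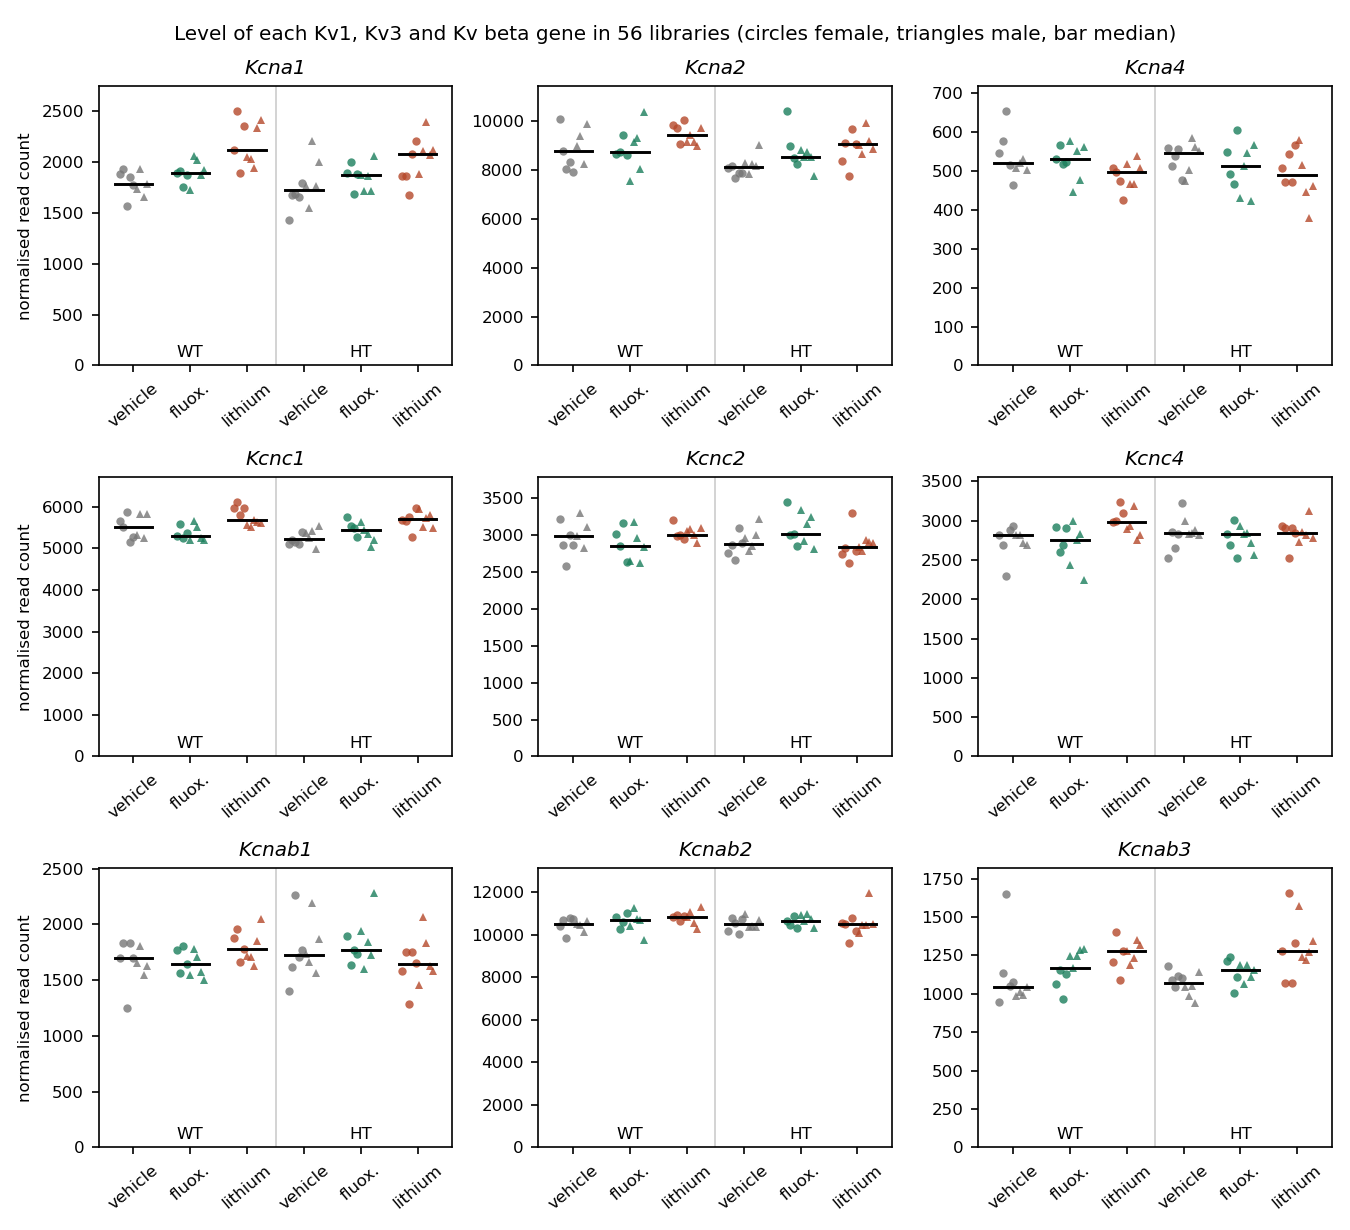
Normalised read count (vertical axis, from 0) of each of the 9 genes in each of the 56 libraries, by genotype and treatment; circles are females, triangles males and bars the median of the 9 or 10 libraries. The lithium points of Kcna1 and Kcnab3 sit above most vehicle points in both genotypes, while those of Kcnc2 lie mostly among them.

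Under lithium, Kcna1 and Kcnab3 were higher than under vehicle in both genotypes, by 15.8% to 21.7%. Kcna2 and Kcnc1 were higher by smaller amounts, Kcna4 was lower in both, within the spread of the libraries, and Kcnc2 differed little. The changes of Kcnc4, Kcnab1 and Kcnab2 were positive in WT mice and were not so in HT mice. In this section changes are log2 changes of (value + 1) from limma, lithium minus vehicle, each ± its standard error and averaged over the sexes. They are the measurements that chose the genes.

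Kcna1, the Kv1.1 pore gene, ran from 1565 to 1931 (median 1776) in the 9 WT vehicle libraries and from 1885 to 2493 (median 2112) in the 9 WT lithium libraries. In HT mice it ran from 1431 to 2199 (median 1720) in 10 vehicle libraries and from 1673 to 2391 (median 2073) in 10 lithium libraries. In WT mice 8 of 9 lithium libraries lay above the highest vehicle library, and in HT mice 2 of 10 did, with 9 of 10 above the vehicle median. The change was 0.28 ± 0.060 in WT and 0.21 ± 0.056 in HT mice. In females and males it was 0.29 ± 0.085 and 0.27 ± 0.085 in WT and 0.23 ± 0.080 and 0.20 ± 0.080 in HT mice.

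Kcna2 encodes Kv1.2, the usual partner of Kv1.1 in axons. Its values were 7934 to 10088 (median 8788) in WT vehicle and 8991 to 10070 (median 9420) in WT lithium libraries, and no lithium library exceeded the highest vehicle library. In HT mice they were 7670 to 9024 (median 8134) under vehicle and 7747 to 9929 (median 9054) under lithium, where 5 of 10 libraries exceeded the highest vehicle library. The change was 0.10 ± 0.048 in WT and 0.14 ± 0.045 in HT mice. In females and males it was 0.17 ± 0.068 and 0.03 ± 0.068 in WT and 0.14 ± 0.064 and 0.14 ± 0.064 in HT mice.

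Kcna4 ran the other way. Its values were 463 to 652 (median 521) in WT vehicle and 425 to 539 (median 497) in WT lithium libraries. In HT mice they were 474 to 583 (median 544) and 380 to 580 (median 490). Of the 10 HT lithium libraries, 5 lay below the lowest vehicle library. The change was -0.13 ± 0.067 in WT and -0.11 ± 0.063 in HT mice, and both 95% intervals included 0.

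Among the Kv3 genes, Kcnc1 showed small differences. It ran from 5156 to 5871 (median 5505) in WT vehicle and from 5504 to 6103 (median 5692) in WT lithium libraries. The HT values were 4976 to 5545 (median 5221) under vehicle and 5276 to 5965 (median 5695) under lithium, with 7 of 10 lithium libraries above every vehicle library and 10 of 10 above the vehicle median. The change was 0.07 ± 0.027 in WT mice, made up of 0.12 ± 0.038 in females and 0.01 ± 0.038 in males. In HT mice it was 0.11 ± 0.025, with 0.13 ± 0.036 in females and 0.10 ± 0.036 in males.

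Kcnc2, the Kv3.2 pore gene of fast-spiking interneurons, changed by 0.03 ± 0.044 in WT and -0.02 ± 0.041 in HT mice. Its medians were 2991 under vehicle and 2998 under lithium in WT, and 2875 and 2834 in HT mice. The WT values of Kcnc4 were 2292 to 2929 (median 2812) under vehicle and 2756 to 3231 (median 2982) under lithium, a change of 0.13 ± 0.046, with 5 of 9 lithium libraries above every vehicle library. In HT mice the medians were 2838 and 2847 and the change was -0.00 ± 0.044. The genotype by lithium difference of Kcnc4 was -0.13 ± 0.064 (HT minus WT).

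Of the beta subunits, Kcnab3 showed the larger lithium change. It ran from 944 to 1649 (median 1045) in WT vehicle and from 1090 to 1404 (median 1278) in WT lithium libraries. In HT mice it ran from 942 to 1184 (median 1072) and from 1069 to 1654 (median 1278), with 8 of 10 lithium libraries above every vehicle library. The highest WT vehicle value, 1649, belonged to female 3, which stood far above the next female at 1139. The change was 0.22 ± 0.070 in WT and 0.28 ± 0.066 in HT mice. It was 0.11 ± 0.099 in WT females, the sex of that library, 0.34 ± 0.099 in WT males, 0.19 ± 0.093 in HT females and 0.36 ± 0.093 in HT males.

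Kcnab1, the inactivating beta subunit, had medians of 1697 under vehicle and 1782 under lithium in WT mice and 1722 and 1641 in HT mice. The changes were 0.12 ± 0.077 and -0.10 ± 0.073, and the genotype by lithium difference was -0.22 ± 0.106. Over the processing alternatives the WT change ran from 0.01 to 0.12 and the HT change from -0.12 to -0.01. That difference then ran from -0.22 to -0.06, and from -0.26 to -0.17 with 1 library left out. Kcnab2 had medians of 10473 and 10841 in WT and 10487 and 10484 in HT mice, with changes of 0.05 ± 0.027 and -0.00 ± 0.025. Of the lithium libraries, 6 of 9 in WT and 1 of 10 in HT mice lay above the highest vehicle library. The genotype by lithium differences of the other 7 genes ran from -0.07 to 0.05.

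Nothing is read from the counts of calls among the 9 genes, since lithium changes chose them. At an adjusted p below 0.05 over the 17778 genes tested, 2 of the 9 genes (Kcna1 and Kcnab3) were higher in WT mice, where 3.84% of all genes were higher and 1.88% lower. In HT mice 4 of 9 (Kcna1, Kcna2, Kcnab3 and Kcnc1) were higher, where 4.64% of all genes were higher and 4.13% lower, and none of the 9 was lower in either genotype. The call of Kcnab3 in WT mice ended when any of 15 single libraries was left out, and also with TMM scaling, edgeR, DESeq2, only the groups compared or the replicate block, which left 1 of 9. That of Kcna2 in HT mice ended with any of 13 left out. The median change over the 9 genes was 0.10 in WT and -0.00 in HT mice, beside 0.00 and -0.00 over all genes tested. Both lithium effects were measured against vehicle libraries that also served the fluoxetine comparison and the genotype comparison under vehicle.

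Tissue markers moved beside these values. The olfactory bulb and neuroblast score had a median of 0.14 in WT vehicle and -0.84 in WT lithium libraries, with ranges of -1.25 to 2.55 and -1.11 to 1.16, and 11 of 11 genes of that list had lower means under lithium. In HT mice the medians were 0.36 and 0.18, yet 8 of 11 genes had higher means under lithium and 3 lower. The striatal score had medians of -0.15 and 0.19 in WT and -0.25 and 0.06 in HT mice. Of its 14 genes, 14 had higher means under lithium in WT mice. In HT mice 5 were higher and 9 lower. The summed olfactory list ran from 1687 to 16147 in WT vehicle and from 1832 to 5934 in WT lithium libraries, and Eomes and Tbx21 were at 0 in some libraries. With both scores as covariates, the changes of Kcna1 and Kcnab3 in WT mice were 0.24 and 0.29. Without the 20 libraries with a score above 1, they were 0.21 and 0.29 in WT mice, and 0.23 (Kcna1), 0.17 (Kcna2), 0.18 (Kcnab3) and 0.08 (Kcnc1) in HT mice. In that smaller set 1 of 9 genes passed in each genotype, Kcnab3 in WT and Kcna1 in HT mice. The omission was uneven: it took 3 of 5 vehicle females in each genotype and no WT lithium female. Smaller groups alone make calls harder to reach.

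The score of the parvalbumin interneuron list also moved in WT mice, though its genes did not move together. The 8 genes were Pvalb, Syt2, Cox6a2, Lhx6, Gad1, Gad2, Slc32a1 and Erbb4, and none was at 0 in any library. In WT mice the score had a median of -0.01 (-0.11 to 0.07) in vehicle and 0.09 (-0.01 to 0.23) in lithium libraries. In HT mice the medians were 0.01 (-0.16 to 0.09) and 0.02 (-0.08 to 0.10). The summed level had medians of 20105 and 20162 in WT and 20374 and 20695 in HT mice. Over the 56 libraries Pvalb itself had a median of 538, beside 8360 for Gad1. After removing group means, the score of this list had a Pearson r of 0.45 with the striatal score. Of the 8 genes, 4 had higher and 4 lower means under lithium in WT mice. Their changes ran from -0.05 to 0.38, and 2 passed limma's adjusted p of 0.05 as higher. In HT mice 3 were higher and 5 lower, and 0 passed. With the score of this 8-gene list as a covariate, the WT changes of Kcna1 and Kcnab3 were 0.21 and 0.11, and none of the 9 genes passed in WT mice. In HT mice they were 0.20 and 0.26, and the same 4 genes passed.

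Markers of microglia, the immune cells of brain, and of endothelium were compared as well. Of 6 microglial genes, none at 0 in any library, 6 had lower means under lithium in both genotypes. Their median change was -0.14 in WT and -0.08 in HT mice. At limma's adjusted p of 0.05, 1 of them passed in WT mice and 1 in HT mice, there P2ry12, at -0.21. The summed microglial level ran from 8870 to 10448 in WT vehicle, 7456 to 10303 in WT lithium, 8575 to 11079 in HT vehicle and 8380 to 9828 in HT lithium libraries. Of 5 endothelial genes, also never at 0, 3 had lower means in each genotype. Cldn5, a tight junction gene, was at -0.38 in WT and -0.49 in HT mice, and both passed. Pecam1 at -0.20 and Flt1 at 0.19 also passed in HT mice. The summed endothelial level ran from 5665 to 7189 in WT vehicle, 5536 to 6577 in WT lithium, 4920 to 7173 in HT vehicle and 5179 to 6294 in HT lithium libraries. Over the 56 libraries, after removing group means, Kcna1 had a Pearson r of -0.62 with the microglial, -0.53 with the astrocyte and -0.53 with the endothelial score. Of 10 excitatory neuron genes, none at 0 in any library, 7 had higher and 3 lower means under lithium in WT mice. Their median change was 0.07, and 1 passed limma's adjusted p of 0.05 as higher. In HT mice 3 were higher and 7 lower, with a median of -0.02, and 1 passed as lower. The genotype by lithium difference was above 0 for 2 of them and below 0 for 8. What part any of these markers has in the lithium changes was not tested.

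**Figure D2:**
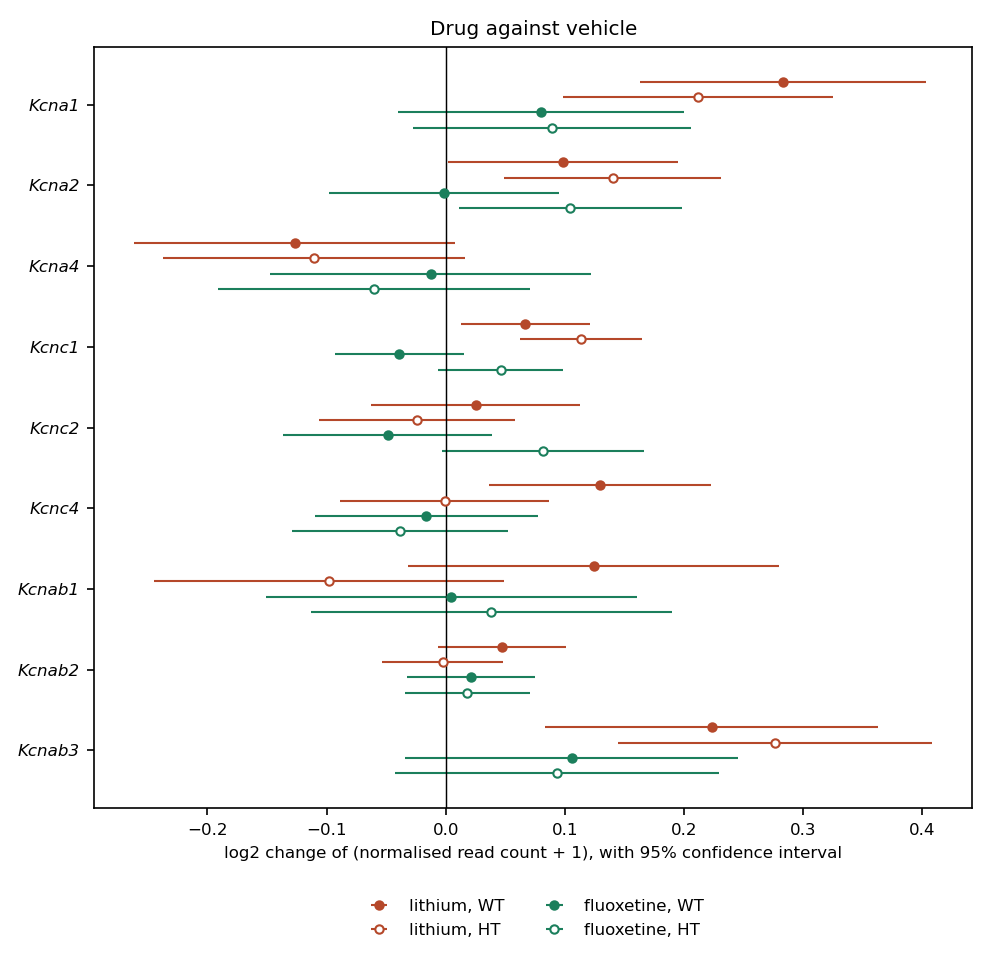
Log2 change against vehicle (horizontal axis) of each gene under lithium (red) and fluoxetine (green), in WT (filled) and HT mice (open), with 95% confidence intervals from limma. The lithium points of Kcna1 and Kcnab3 lie between 0.21 and 0.28, and the fluoxetine points of all 9 genes lie between -0.06 and 0.11.

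**Figure D3:**
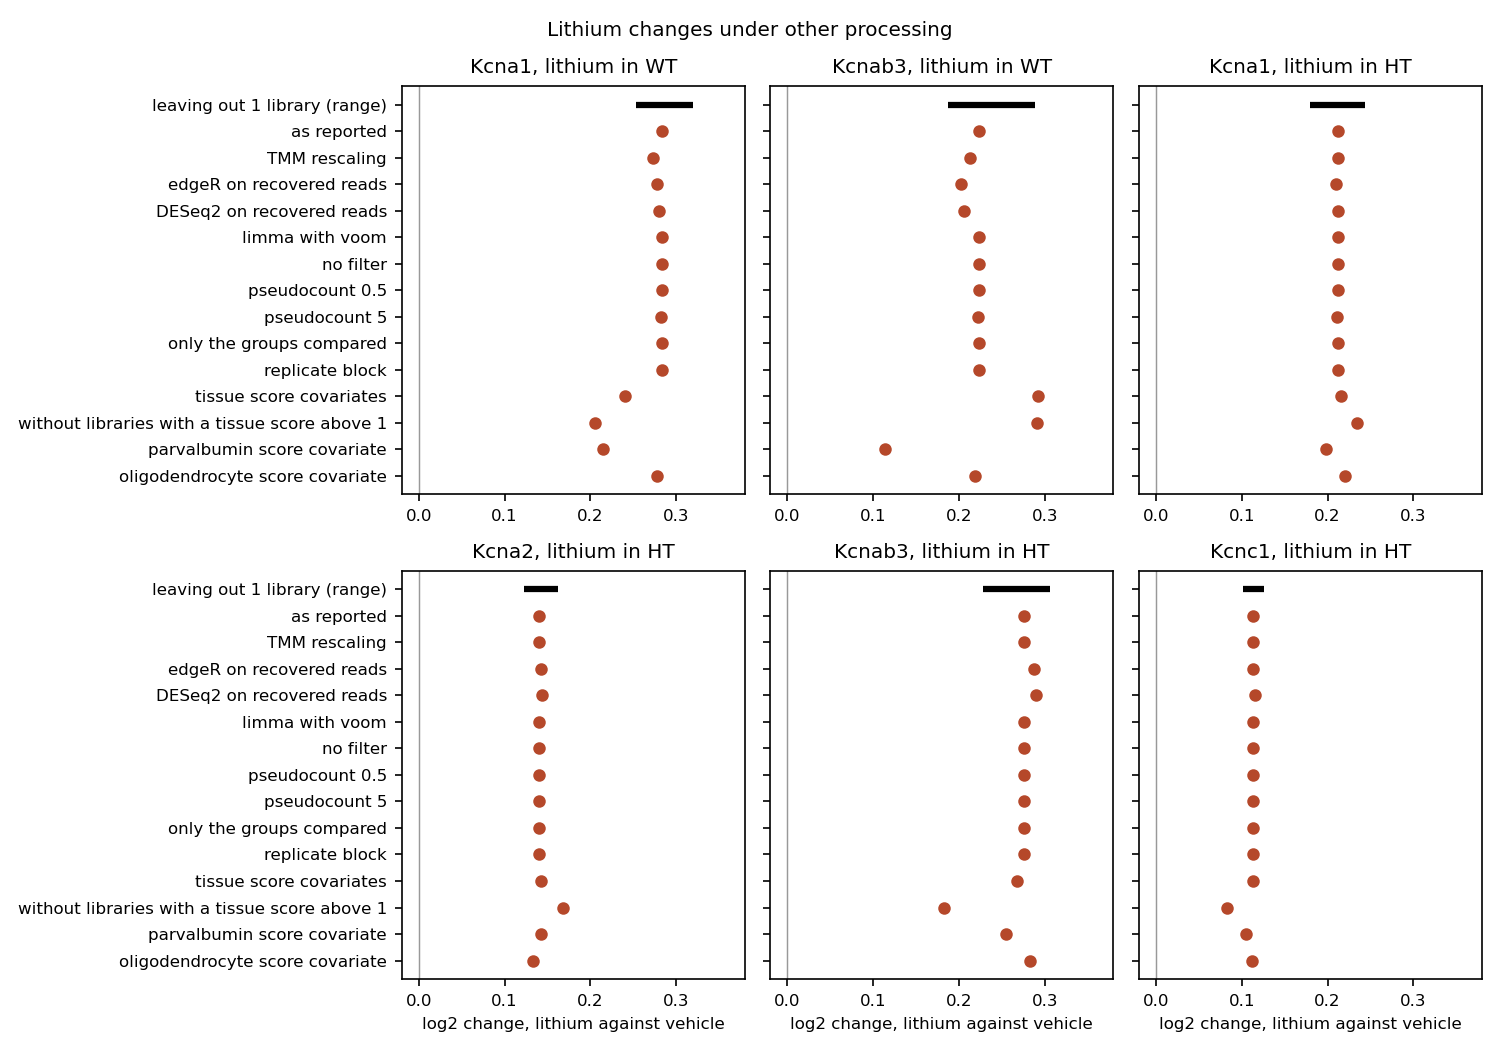
Lithium change (horizontal axis, log2) of the 6 gene and genotype pairs that passed, recomputed under each processing alternative named on the vertical axis, with the range over single left-out libraries as a black bar. All points lie above 0, and the lowest for Kcnab3 in WT mice, 0.11, is that with the parvalbumin score as a covariate.

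Fluoxetine, a serotonin reuptake inhibitor, left the 9 genes without a detected change. In WT mice 0 of 9 passed limma's adjusted p of 0.05, where 0.146% of all genes did, and in HT mice 0 of 9 passed, where 0.045% did. Before adjustment, none was under 0.05 in WT mice and only Kcna2 was in HT mice, where 1929 and 1521 of the 17778 genes tested were. DESeq2 and edgeR on the recovered reads also called 0 of 9 in both genotypes.

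The largest fluoxetine change in WT mice was that of Kcnab3, at 0.11 (95% interval -0.03 to 0.25, limma adjusted p = 0.61), with values of 965 to 1294 (median 1168). It was 0.31 ± 0.099 in WT males and -0.10 ± 0.099 in WT females, and the difference between the sexes was not tested. Without WT vehicle female 3 the change was 0.17 (limma adjusted p = 0.23), and without the 20 libraries also 0.17 (limma adjusted p = 0.29). Kcna1 changed by 0.08 (-0.04 to 0.20) in WT and 0.09 (-0.03 to 0.21) in HT mice. Kcna2 changed by -0.00 (-0.10 to 0.10) in WT and 0.10 (0.01 to 0.20, limma adjusted p = 0.57) in HT mice, where 8 of 9 fluoxetine libraries lay above the vehicle median. The upper ends of the Kcna1 intervals, 0.20 and 0.21, stand beside lithium changes of 0.28 and 0.21. For Kcnab2 they ran from -0.03 to 0.07 in both genotypes, so a change beyond 0.07 lay outside the interval.

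The remaining genes moved little under fluoxetine. Kcnc1 changed by -0.04 ± 0.027 in WT and 0.05 ± 0.026 in HT mice, and Kcnc2 by -0.05 ± 0.044 and 0.08 ± 0.042. The genotype by fluoxetine difference was 0.09 ± 0.038 for Kcnc1 and 0.13 ± 0.061 for Kcnc2, with unadjusted p = 0.027 and 0.037 and limma adjusted p = 0.88 and 0.89. Of the 9 genes 0 passed that test, and 0% of all genes did (967 of 17778 had an unadjusted p below 0.05). Kcna4, Kcnc4 and Kcnab1 changed by between -0.06 and 0.04 in either genotype.

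None of the 9 genes differed detectably between HT and WT mice at the adjusted threshold. Under vehicle 0 of 9 passed, where 0.00562% of all genes did, under fluoxetine 0 of 9, where 0.0112% did, and under lithium 0 of 9, where 0.0337% did. With the 3 treatments averaged, again 0 of 9 passed, where 0.152% of all genes did. DESeq2 and edgeR called 0 of 9 in all 4 comparisons.

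Under vehicle the lowest unadjusted p-values belonged to Kcna2 and Kcnc1. The same vehicle libraries were the reference of the lithium changes that chose the genes, so these p-values are not independent of that choice. The fitted HT level of Kcna2 differed by -8.33% from that of WT, with a WT median of 8788 and an HT median of 8134, a log2 change of -0.13 ± 0.047 (limma adjusted p = 0.34). Its SD was 792 in WT (n = 9) and 373 in HT libraries (n = 10), and the 2 groups overlapped widely. That of Kcnc1 differed by -4.89%, at -0.07 ± 0.026 (limma adjusted p = 0.33). The unadjusted p-values of Kcna2 and Kcnc1 were 0.0099 and 0.0080. Kcnc1 had means of 5520 ± 280 (SD, n = 9) in WT and 5249 ± 174 (SD, n = 10) in HT libraries. Averaged over treatments, Kcna2 was at -0.08 ± 0.027 (limma adjusted p = 0.35) and Kcnc1 at -0.03 ± 0.015 (limma adjusted p = 0.67).

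For the other 7 genes the genotype change averaged over treatments ran from -0.06 (Kcna1) to 0.03 (Kcnab1). Under fluoxetine, Kcnc2 was higher in HT mice by 0.10 ± 0.044 (unadjusted p = 0.030, limma adjusted p = 1.0). Under lithium, the change in HT mice was -0.13 ± 0.075 for Kcnab1 and -0.11 ± 0.058 for Kcna1, both without passing. Females and males did not differ detectably in any of the 9 genes, with differences (female minus male) from -0.04 to 0.04. In that comparison 0 of 9 passed, beside 0.197% of all genes. None of the 9 had an unadjusted p below 0.05, beside 1112 of the 17778 genes tested.

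**Figure D4:**
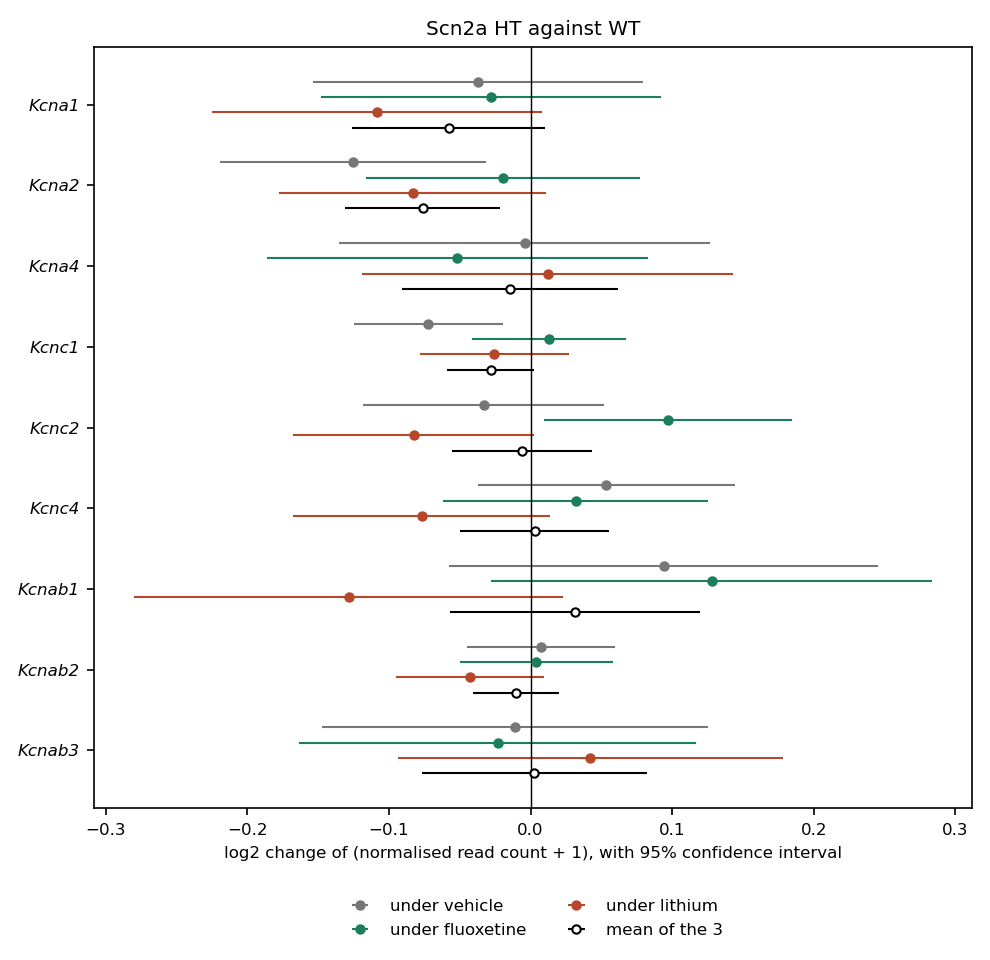
Log2 change of HT against WT mice (horizontal axis) for each gene under vehicle (grey), fluoxetine (green) and lithium (red) and averaged over the 3 (open black), with 95% confidence intervals from limma. Most intervals cross 0. Those of Kcna2 (-0.22 to -0.03) and Kcnc1 (-0.12 to -0.02) under vehicle, Kcnc2 under fluoxetine (0.01 to 0.18) and Kcna2 averaged over treatments (-0.13 to -0.02) do not, and none of them passed the adjusted test.

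Of the Kv1 genes outside the set, Kcna3, Kcna5 and Kcna6 did not pass under lithium in either genotype. Kcna6 changed by 0.08 ± 0.041 and -0.03 ± 0.038, Kcna3 by 0.05 ± 0.123 and 0.05 ± 0.116, and Kcna5 by 0.49 ± 0.222 and 0.26 ± 0.209.

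Wider lists gave few further calls. Over all genes, as above, 3.84% were called higher and 1.88% lower in WT mice, and 4.64% higher and 4.13% lower in HT mice. Of 23 genes of other Kv families, 0 passed under lithium in WT mice with limma. An unadjusted p below 0.05 was found for 4 of the 23, beside 3810 of all 17778 genes tested. In HT mice 1 passed, Kcnd3, a Kv4 gene of the A-type current, which rose by 0.18 ± 0.058 (limma adjusted p = 0.038). Of 15 partners of Kv1 channels, Lgi1, a secreted protein that binds Kv1 complexes and a gene of inherited epilepsy, rose in WT mice by 0.16 ± 0.044 (limma adjusted p = 0.023). In HT mice 3 partners fell: Lgi4 by 0.19 ± 0.051 (limma adjusted p = 0.014), Dlg2 (PSD-93, a scaffold that clusters Kv1 channels) by 0.13 ± 0.042 (limma adjusted p = 0.044) and Dlg4 (PSD-95) by 0.09 ± 0.027 (limma adjusted p = 0.027). The medians were 0.04 in WT and 0.01 in HT mice over the other Kv families, and 0.04 and 0.02 over the partners. The calls of Lgi1, Dlg4, Kcnd3 and Dlg2 each ended when certain single libraries were left out, in 2, 4, 11 and 13 cases. Without the 20 libraries Lgi1 (0.11), Dlg2 (-0.12) and Dlg4 (-0.09) also did not pass. Lgi1 (0.15) and Dlg2 (-0.13) did not pass with the parvalbumin score as a covariate, nor Kcnd3 (0.18) with only the groups compared. None of these genes passed under fluoxetine or between genotypes.

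Within groups, the 9 genes did not move as a block. Over the 56 libraries, after subtracting each group's mean, 24 of 36 pairs had a positive Pearson r, with a median of 0.13. The libraries of a group share normalisation and dissection, so these values are a description. The closest pairs were Kcna2 and Kcnc2 (r = 0.71), Kcnab2 and Kcnc4 (0.71) and Kcna1 and Kcnab1 (0.68). Kcna4 ran opposite to Kcnab2 and Kcnc4 (both -0.67). The 2 genes with the larger lithium changes, Kcna1 and Kcnab3, were not related within groups (-0.06).

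The genes also differed in which marker score they followed. Kcnc4 and Kcnc2 followed the excitatory neuron score (0.77 and 0.73), as did Kcnab2 (0.63). Kcnab3 and Kcna4 followed the olfactory bulb and neuroblast score (0.67 and 0.64), which Kcnc4 and Kcnab2 opposed (-0.68 and -0.63). Kcnab1 followed the striatal score (0.61). Kcnc1 was tied to neither of these region scores (0.00 and -0.19) and had its highest r among the 8 scores with the parvalbumin score (0.45).

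**Figure D5:**
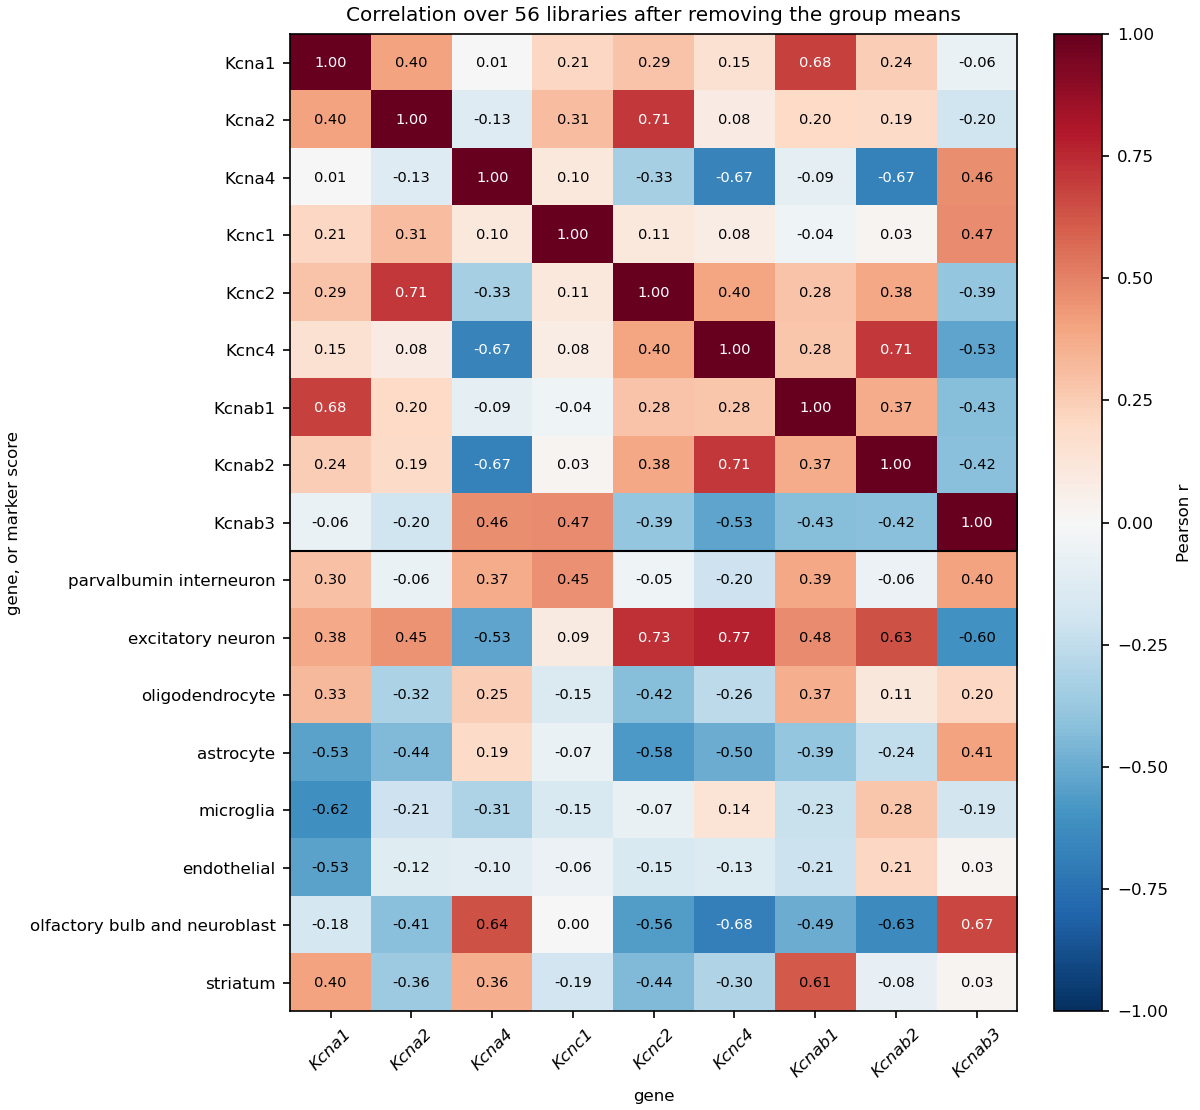
Pearson r over the 56 libraries, after removing group means, between the 9 genes (columns) and the 9 genes and 8 marker scores (rows). Kcnab3 and Kcna4 share the red cells of the olfactory bulb and neuroblast score (0.67 and 0.64), while Kcnc4, Kcnab2 and Kcnc2 share those of the excitatory score.

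The genes most like each member over the same 56 libraries were found among genes with a mean value of at least 50. For Kcnc1 they included Cacna1i (r = 0.59), a T-type calcium channel gene, and Astn2 (0.58). For Kcna1 they were Slc24a2 (0.84), Cadps2 (0.81) and Ube4b (0.78), and for Kcna2 Arfgef3 (0.86), the Kv11 gene Kcnh7 (0.86) and Megf9 (0.85). Kcnc4 was closest to the glutamate transporter gene Slc17a7 (0.91), Lingo1 (0.91) and Olfm1 (0.91). Kcnc2 was closest to Herc3 (0.87), Mal2 (0.86) and Opcml (0.84). Kcna4 was closest to the homeobox gene Dlx6 (0.75), Anapc1 (0.74) and Lrrc55 (0.73). Among the beta subunits, Kcnab1 was closest to Smpd3 (0.83), Gprin3 (0.82) and Gnal (0.82), a G protein subunit abundant in striatum. Kcnab2 was closest to Fbxo31 (0.91), Jph3 (0.84) and Zmiz2 (0.84), and Kcnab3 to Tuba8 (0.83), Nrip3 (0.82) and Adarb1 (0.79).

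The make-up of each family was also followed, as shares of the length-scaled sum. Kcna1 made up a median of 18.6% of the measured Kv1 sum in WT vehicle and 20.2% in WT lithium libraries, and 18.5% and 20.5% in HT libraries. The share of Kcna4 was 5.3% and 4.7% in WT and 5.6% and 5.0% in HT mice, and that of Kcna2 stayed between 34.9% and 36.8%. Within the Kv beta sum, the share of Kcnab3 was 14.8% and 17.1% in WT and 15.0% and 17.4% in HT mice, while Kcnab2 held 74.4% to 77.1%. These shares rest on the same lithium values that chose the genes and are given without a test.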

How the data were processed

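Per the labels' protocols, a TruSeq kit for stranded mRNA was used. Per the submitters' processing notes, the genome build was GRCm38 and the tools included DESeq2 1.19.11, R 3.6.0 and Salmon 0.11.2, with no role given for each. The deposited values are a signal per gene, the read count divided by 1 size factor per library (0.818 to 1.23) by the authors. The worth of 1 read in a library, its step, is 1 over the size factor. Dividing the values by the step gave back whole reads for 100% of values in all 56 libraries (tolerance 0.01 reads). In 3 of the 56 libraries the step lay too close to a power of 10 for that check to be informative. Salmon shares reads between near-identical sequences by a model.

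Genotype, treatment and sex, as given in the titles, set the 12 groups. Genes with a value of at least 10 in at least 4 libraries were kept (17778, with 310 left out). limma 3.58.1 in R 4.3.3 was fitted to log2(value + 1) over all 56 libraries with a mean per group, trend and robust settings, and p-values were adjusted by Benjamini-Hochberg over all 17778 genes. Such log2 changes understate the change of low genes. Drug and genotype effects weight the sexes equally. The plan named edgeR for whole counts and limma for other values. As the deposited unit was a signal, limma was used, with edgeR 4.0.16, DESeq2 1.42.0 and limma with voom on the recovered reads as alternatives, beside TMM scaling, pseudocounts of 0.5 and 5, no filter, only the groups compared, marker scores as covariates, a replicate block and leaving out libraries. The fit was tested on simulated data. Intervals rest on the spread between libraries.

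The members, gene lists and marker lists were chosen with earlier results of these data known. Named were all 9 members, the measured other Kv1 genes, of the lists of 23 other Kv genes and 15 Kv1 partners those called in a drug or genotype effect (at most 4 per comparison), and the 3 genes most correlated with each member. An item that the rule for named genes would also name is not reported here.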

Additional observations from a re-analysis of the deposited data

Results flagged for a closer look

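In 6 of the 108 combinations of a gene with a group of 4 or 5 libraries, 1 library stood apart from the rest of its group by Dixon's test, where chance alone flags about 1 in 20. Of these, 2 fall on WT vehicle female 3. There Kcnab1 was at 1250, beside 1697 to 1837 in the other females, and Kcnab3 was at 1649, beside 944 to 1139. This library had the highest olfactory bulb and neuroblast score of its treatment and genotype, 2.55, and an excitatory neuron score of -0.27. Without it, the lithium change of Kcnab3 in WT mice was 0.29 rather than 0.22. In HT lithium female 3, Kcnc4 was at 2527, beside 2840 to 2930 in the others, and the same 2 scores were 2.45 and -0.28. What part the tissue scores have in these values was not tested.

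Kcna2 was at 7760 in HT fluoxetine male 5, beside 8532 to 8804, where the striatal score was 2.41. It was at 9448 in WT fluoxetine female 3, beside 8610 to 8749, and neither region score was above 1 there. Kcnab2 was at 11932 in HT lithium male 4, beside 10085 to 10501, again with neither region score above 1.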

How the results depend on the processing

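Of the 9 genes, 2 passed for lithium in WT mice. This became 1 with TMM scaling, edgeR, DESeq2, only the groups compared, the replicate block, and without the 20 libraries with a region score above 1, and 0 with the parvalbumin score as a covariate. Leaving out 1 library gave 1 to 2. In HT mice 4 passed. This became 1 without those 20 libraries, and leaving out 1 library gave 3 to 4. In every other comparison 0 of 9 passed under all alternatives run, and no called direction reversed. Kcnab3 in WT mice (0.22) ran from 0.11 to 0.29. Its adjusted p is close to the threshold, and leaving out any of 15 WT vehicle or lithium libraries ended its call, the exceptions being vehicle female 3, lithium female 3 and lithium male 2. Kcna2 in HT mice (0.14) lost its call in 13 such cases, with values of 0.12 to 0.16, all except vehicle females 1 and 2, vehicle male 5, lithium females 1 and 3 and lithium males 2 and 5. With 1 library left out, Kcna1 ran from 0.25 to 0.32 in WT and 0.18 to 0.24 in HT mice, Kcnab3 in HT mice from 0.23 to 0.31 and Kcnc1 in HT mice from 0.10 to 0.13. Single omissions ended the call of Lgi1 in 2 cases (WT vehicle female 3 and male 3), of Dlg4 in 4 (HT lithium females 3 and 5 and male 3, and HT vehicle male 2), of Kcnd3 in 11 (0.15 to 0.21 over all omissions) and of Dlg2 in 13 (-0.14 to -0.11). The cause was not tested. The oligodendrocyte score as a covariate was chosen after seeing the data and changed no call among the 9 genes.

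Counts over all genes depended more on the choices. For lithium in WT mice 1016 genes passed, 153 without the 20 libraries, 430 with the parvalbumin score and 570 to 1226 with 1 library left out. In HT mice 1560 passed, 524 without the 20 libraries and 985 to 1816 with 1 left out. For fluoxetine in WT mice 26 passed, 123 with DESeq2, 67 with region scores as covariates, 49 with the replicate block, 9 with only the groups compared, 0 without the 20 libraries and 0 to 71 with 1 left out. In HT mice 8 passed, 16 with DESeq2, 19 with only the groups compared, 13 with region scores, 1 without the 20 libraries and 4 to 13 with 1 left out. Between genotypes, 1 passed under vehicle (34 with DESeq2, 12 with region scores, 7 without the 20 libraries, 1 to 35 with 1 left out) and 6 under lithium (13 with DESeq2, 16 with only the groups compared, 3 with region scores, 1 with the parvalbumin score, 2 to 10 with 1 left out). Under fluoxetine 2 passed (1 with only the groups compared or without the 20 libraries), and averaged over treatments 27 did (50 with DESeq2, 64 with region scores, 15 without the 20 libraries, 17 to 42 with 1 left out). The genotype by lithium difference gave 0 genes, 11 with DESeq2.

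Replicate numbers did not pair the libraries: deviations of same-numbered libraries of different groups had a median correlation of -0.0016, and 24 of 292 pairs were above 0.1. With the replicate block the lithium changes of Kcna1 and Kcnab3 in WT mice were again 0.28 and 0.22. TMM scaling shifted the median of all genes by at most 0.010 in size. With 9 to 10 libraries a group, changes of a few percent in the more variable genes, such as Kcnab1, lay within their intervals.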
